A study of Mus musculus with 2 samples.

Results

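Mir216a, Mir216b, Mir217, Mir802 and Mir6969 are microRNA genes tied to the pancreas, and here they were measured in adrenal gland. They are 5 of the 2202 microRNA genes in the deposited tables. They were chosen by symbol and selected on their counts in these same libraries, because they had counts in one library and almost none in the other. Their difference between the libraries is therefore a description, and no test of it is given. The data are 2 small RNA libraries of adrenal gland, made at an age of 36 days from males of B6CASTF1/J, an F1 hybrid of C57BL/6J and CAST/EiJ, with 1 library per animal. The labels give a single group with no treatment, and they number the animals apart while listing 1 donor record for both. With 1 library per animal, the animal, dissection, preparation and sequencing cannot be told apart.

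A microRNA is cut from a hairpin transcript and guides a silencing complex to messenger RNAs, mainly through its seed, bases 2 to 8 counted from the 5′ end. The miR-216 and miR-217 microRNAs are known from the acinar cells of the pancreas, which make digestive enzymes, and are studied as blood markers of pancreatic injury. miR-802 is known from pancreas, intestine and liver. Mir6969 lies inside Clps, the gene of colipase, a cofactor that pancreatic lipase needs to digest fat.

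The mature sequences of all 5 genes were found in RefSeq (GRCm38.p6). One arm of each acinar and miR-802 hairpin and both arms of Mir6969 are shown, with the seed in capitals, so that their relations can be read.

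miR-216a-5p: uAAUCUCAgcuggcaacuguga
miR-216b-5p: aAAUCUCUgcaggcaaauguga
miR-217-5p: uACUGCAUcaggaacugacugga
miR-802-5p: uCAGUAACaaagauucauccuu
miR-6969-5p: cAGCAGAGuagggagcaaaaga
miR-6969-3p: uGUUGUUCccaucucugcag

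miR-216a-5p and miR-216b-5p were identical at 18 of 22 positions (81.8%). From miR-216a-5p to miR-216b-5p, counting from 1 at the 5′ end, the substitutions were U1A, A8U, U11A and C17A. The pair therefore shared bases 2 to 7 and differed at the last base of the seed. No other mature sequence among the 1738 in the RefSeq table had the seed of any arm of the 5 genes, and outside this pair none shared bases 2 to 7. Over whole hairpins, Mir216a and Mir216b were 59.1% identical. Each of the 10 mature arms occurred in only 1 of the 1005 hairpins of that table. Shorter reads, reads with mismatches and other places in the genome were not searched. Nor was it tested whether CAST/EiJ alleles map less well.

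Mir216b (ENSMUSG00000076318.1), Mir216a (ENSMUSG00000065539.1) and Mir217 (ENSMUSG00000065415.1) lie in that order on the plus strand of mouse chromosome 11 within 17645 bases. In mm10 with GENCODE M21, Mir216b runs from 28746191 to 28746276, between genes, and Mir216a from 28757012 to 28757083. Mir217 runs from 28763728 to 28763835. Mir216a and Mir217 lie in introns of the long noncoding RNA gene Gm12082, whose annotated start is 5356 bases downstream of Mir216b. Mir802 (ENSMUSG00000076457.1) lies on chromosome 16 from 93369720 to 93369816, plus strand, between annotated genes.

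Mir6969 (ENSMUSG00000099152.1) lies on chromosome 17 from 28558441 to 28558501, minus strand, in the last intron of Clps. Its hairpin is shown because its 3′ end is the end of that intron, with 0 bases between the hairpin and the last exon in both annotated transcripts. The capitals mark both mature arms.

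Mir6969 hairpin: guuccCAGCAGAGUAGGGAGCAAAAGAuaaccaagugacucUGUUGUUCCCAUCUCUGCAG

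The 3′ arm thus ends on the last base of the intron. The 5′ end of the hairpin is 259 bases from the start of the intron in one transcript, in which the intron is 320 bases long. In the other transcript it is 2069 bases from the start of an intron of 2130 bases.

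**Figure D1:**
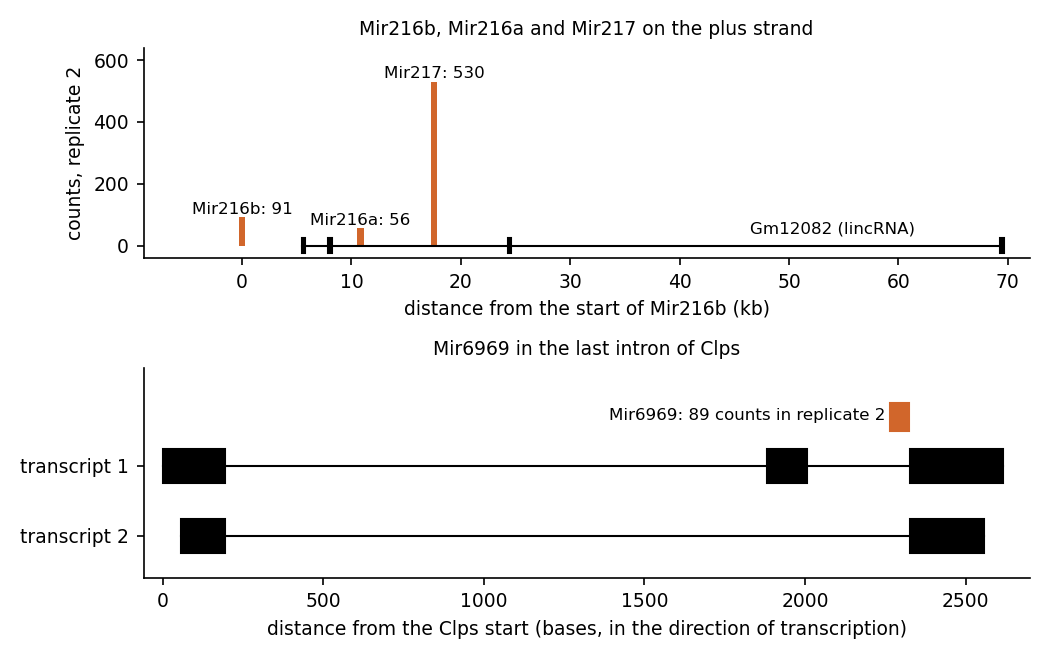
Upper panel: positions in kilobases from the start of Mir216b, with exons of Gm12082 as black boxes and bars at each microRNA gene for its counts in replicate 2 (530 for Mir217, 91 for Mir216b, 56 for Mir216a). Lower panel: the 2 annotated Clps transcripts in bases from the gene's start, with exons as black boxes and Mir6969 as an orange box that abuts the last exon.

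Every one of the 5 genes had counts in replicate 2, and only Mir802 had any in replicate 1, a single count. Values are sense-strand read counts per microRNA gene and CPM, a gene's counts for each 1000000 microRNA counts of its library, with exact Clopper-Pearson 95% intervals that cover counting error only. Mature arms of the 5 genes are 20 to 23 bases long, so levels of different genes were compared without scaling by length. PCR copies are not marked, so a read need not stand for a separate molecule. Replicate 1 held 12289288 reads and 4494857 counts on microRNA genes, and replicate 2 held 10323816 reads and 2078824 such counts. A gene at 0 may have up to 3 counts, which is 0.667 CPM in replicate 1 and 1.44 CPM in replicate 2.

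Mir217 had 0 counts in replicate 1 and 530 in replicate 2. This was the highest count of the 5 genes, 255 CPM in replicate 2 (interval 234 to 278), and ranked 151 of the 624 genes with any count there. Against the floor of 3 counts in replicate 1 it was at least 382-fold higher in replicate 2, a log2 ratio of at least 8.58. At the level of replicate 2, the depth of replicate 1 would have given 1146 counts.

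Mir216b had 0 counts in replicate 1 and 91 in replicate 2, or 43.8 CPM (35.2 to 53.7). Mir216a had 0 and 56 counts, or 26.9 CPM in replicate 2 (20.3 to 35.0). Both of these acinar genes were thus at 0 in the deeper library and well above the floor in the shallower one. Their CPM was 65.6-fold and 40.4-fold higher in replicate 2 than the floor of replicate 1. With the 0 counts themselves, the lower limits of the counting intervals of these ratios were 52.3 and 31.8. At the level of replicate 2, the depth of replicate 1 would have given 197 counts of Mir216b and 121 of Mir216a.

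Mir802 had 1 count in replicate 1 and 344 in replicate 2, or 0.222 CPM (0.00563 to 1.24) and 165 CPM (148 to 184). It ranked 180 in replicate 2. The ratio of CPM was 744, with a counting interval of 133 to 29463 that is wide because it rests on 1 count.

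Mir6969 had 0 counts in replicate 1 and 89 in replicate 2, or 42.8 CPM (34.4 to 52.7). It was 64.1-fold higher in replicate 2 than the floor of replicate 1, with a lower counting limit of 51.1 from the 0 count itself. Its level was within counting error of that of Mir216b, at 91 against 89 counts (ratio 1.02, interval 0.755 to 1.39).

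Summed, the 5 genes had 1 count in replicate 1 and 1110 in replicate 2. That is 0.0534% of the microRNA counts of replicate 2 (0.0503 to 0.0566) and at most 0.000124% of those of replicate 1. As a mean over the libraries it is 267 ± 377 CPM (SD, n = 2), a spread larger than the mean, so the mean describes neither library. In a piece of tissue, fewer cells of a type and less RNA per cell cannot be told apart. What brought these counts into replicate 2 was not tested.

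**Figure D2:**
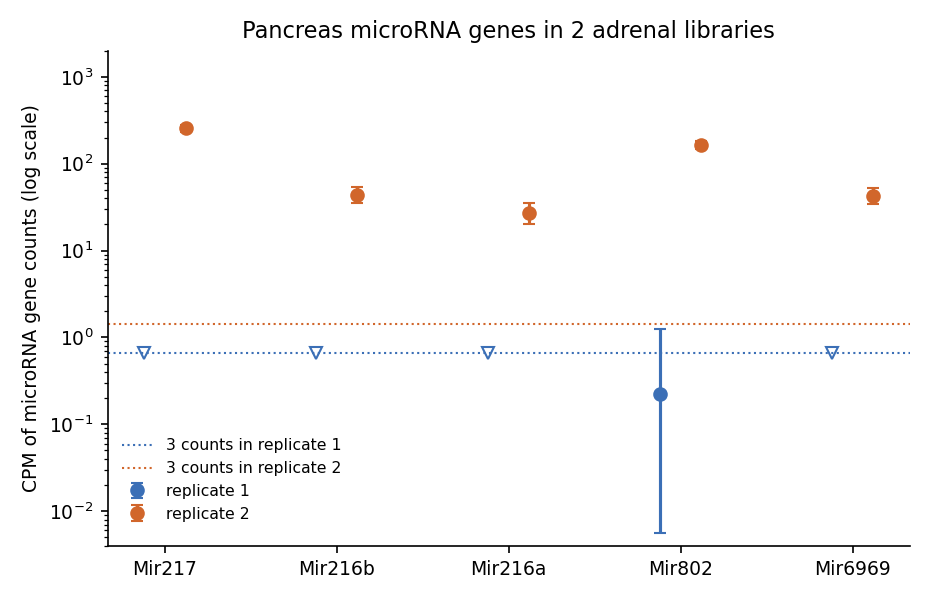
CPM on a log axis of each gene in replicate 1 (blue) and replicate 2 (orange), with exact 95% counting intervals. Open triangles stand at the level of 3 counts for genes with 0 counts in replicate 1, and dotted lines mark 3 counts in each library. In replicate 2 all 5 genes lie between 26.9 and 255 CPM, and in replicate 1 the single count of Mir802 gives 0.222 CPM.

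The neighbours Mir217, Mir216b and Mir216a were not counted equally in replicate 2. Mir217 took 78.3% of the 677 counts of the cluster (75.0 to 81.3), Mir216b 13.4% (11.0 to 16.2) and Mir216a 8.27% (6.31 to 10.6). Mir217 had 5.82 times the counts of Mir216b (4.66 to 7.36) and 9.46 times those of Mir216a (7.18 to 12.7). Mir216b had 1.62 times the counts of Mir216a (1.15 to 2.31). The order Mir217, Mir802, Mir216b or Mir6969, Mir216a thus exceeds counting error at each step other than the one between Mir216b and Mir6969. It rests on 1 library, and no second library can show how it varies between animals. How evenly these different sequences were captured and copied was not tested, so this is an order of read counts.

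The opposite strand held nothing at the 5 genes, with 0 counts in both libraries. Mir216c is annotated on the minus strand from 28746198 to 28746266, and its hairpin is the reverse complement of bases 8 to 76 of the Mir216b hairpin. Mir216c had 0 counts on its own strand in both libraries, so all 91 counts at this place lay on the strand of Mir216b. In the column that ignores strand, reads that could belong to both are set aside, and Mir216b is listed at 0 in both libraries. No other microRNA gene within 50 kb of any of the 5 had a count.

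Among the 441 genes with at least 10 counts summed over both libraries, 40 were over 4-fold higher in replicate 2, or 9.07%, and 16 were over 4-fold higher in replicate 1, or 3.63%. With TMM scaling in edgeR the split was 30 and 21. All 5 pancreas genes passed the minimum, in each case through replicate 2, and all 5 lay past 4-fold toward replicate 2. Since they were selected on this ratio, that count carries no weight of its own. Genes with 0 counts in replicate 1 and at least 10 in replicate 2 numbered 5, or 1.13%. They were Mir217, Mir216b, Mir6969, Mir216a and, far lower at 11 counts, Gm25732. The reverse, 0 counts in replicate 2 and at least 10 in replicate 1, held for 3 genes, or 0.68%, each with 11 counts. These 3 were Mir7013, Mir6994 and Mir6418. Of the 270 genes with at least 50 counts in replicate 2, only Mir217, Mir216b, Mir6969 and Mir216a had 0 in replicate 1. That minimum lies just below the 56 counts of Mir216a. With at least 100 counts in replicate 2, 1 of 241 genes had 0 in replicate 1. The members were selected for this pattern, so their place in these counts restates the selection.

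**Figure D3:**
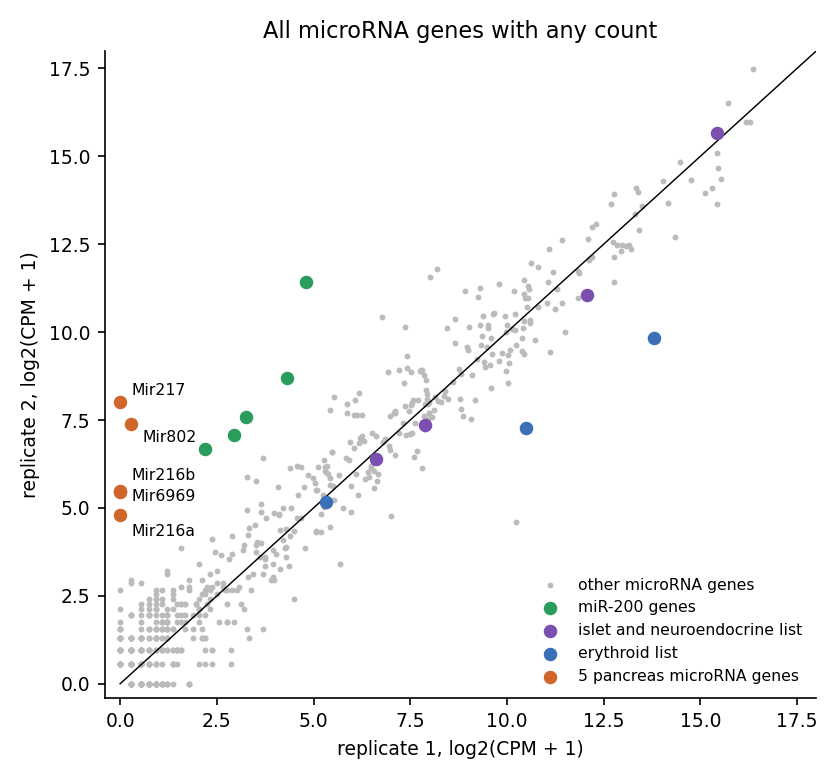
Each point is a microRNA gene with any count, at its log2(CPM + 1) in replicate 1 and replicate 2, with the line of equal levels. The 5 pancreas genes stand at the left edge, at or next to 0 in replicate 1, and the 5 miR-200 genes lie to their right, above the line. The erythroid genes Mir451a and Mir144 lie below it.

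Of the 10 other genes with the ratios nearest to these, 5 were the miR-200 genes, which mark epithelium. The log2 ratio was 6.65 for Mir200c, 4.82 for Mir200a, 4.50 for Mir429, 4.46 for Mir200b and 4.32 for Mir141. In replicate 1 all 5 miR-200 genes were counted, with 16 counts of Mir200a at the lowest and 122 of Mir200c at the highest. The pancreas genes were selected for having almost no counts there, so this contrast with them restates the selection. Mir6943, Mir3105 and Gm24245 had log2 ratios of 4.92, 4.81 and 3.81, each from at most 2 counts in replicate 1 and at most 14 in replicate 2. Mir31, known from squamous epithelium, had 489 and 2891 counts and a log2 ratio of 3.68. Mir30b had 1303 and 7424 counts and a log2 ratio of 3.62. Likeness was measured by the ratio of 2 libraries alone, with a count of 0 set to 3 and counts of 1 or 2 kept. A gene at 0 can thus rank below genes at 1 or 2. Gm25732, at 0 and 11 counts, had a log2 ratio of 2.99 with this floor (lower counting limit 2.44) and fell outside these 10.

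Other microRNAs known from the pancreas were counted in both libraries. Mir375, abundant in the islets and in other endocrine cells, had 44147 CPM in replicate 1 and 51780 CPM in replicate 2, a log2 ratio of 0.23. Mir7b, Mir7-1 and Mir7-2, also known from islets, had log2 ratios of -1.02, -0.50 and -0.21. Mir148a, rich in acinar cells but present in many tissues, had 928 and 676 CPM, a log2 ratio of -0.46. Its seed relatives Mir148b and Mir152 had -0.32 and -0.22. None of these genes was past 4-fold, which with shares of 9.07% and 3.63% over all genes tested is no result about them.

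Because miR-802 is also known from liver and intestine, the microRNAs of those organs are given beside it. The hepatocyte microRNA gene Mir122 had 1383 CPM in replicate 1 and 2842 CPM in replicate 2, a log2 ratio of 1.04. Of the kidney and intestine list, Mir192, Mir194-2, Mir204 and Mir215 had log2 ratios of 0.41, 0.87, 1.86 and -1.02, and Mir194-1 had 6 counts in replicate 1 and 0 in replicate 2. None of the 5 that passed the minimum was past 4-fold toward replicate 2, beside 9.07% of all genes tested, although Mir204 passed it at 2.03 with the highest gene left out of the totals. Mir802 was selected on this ratio, so no comparison with these genes is drawn from it.

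The lists of other tissues shifted in both directions. All 5 miR-200 genes, 2 of 3 brown fat genes and 1 of 3 squamous epithelium genes were over 4-fold higher in replicate 2, beside 9.07% of all genes tested. The brown fat genes were Mir193b at 256 and 3032 CPM and Mir365-1 at 2.00 and 13.5 CPM. These 2 lie close together on chromosome 16, from 13449523 and 13453840, so they are not separate loci. Mir365-2 stood at 9.12 and 20.7 CPM. Of the squamous epithelium genes, Mir31 was past 4-fold and the others were not. Mir203 had 1551 CPM in replicate 1 and 1232 CPM in replicate 2, a log2 ratio of -0.33. Mir205 had 14 and 20 counts, a log2 ratio of 1.63. Of the 3 erythroid genes, Mir451a and Mir144 were over 4-fold higher in replicate 1, with log2 ratios of -3.99 and -3.23, beside 3.63% of all genes tested, and Mir486 had -0.14. The 4 leukocyte genes had log2 ratios from -0.38 for Mir223 to 0.59 for Mir150, and none was past 4-fold. The miR-183 cluster stayed within 4-fold, from -0.49 for Mir182 to 1.42 for Mir96. Of 10 striated muscle genes, 5 had 0 counts in both libraries and 3 passed the minimum. Among these Mir206, at 5 and 11 counts, had a log2 ratio of 2.25 that was 1.90 with TMM and 1.81 with DESeq2, so its call past 4-fold was lost with both. Mir499 had 14 and 9 counts, and Mir1b 9 and 2. Reads that mapped to several places, 29.8% in replicate 1 and 21.5% in replicate 2, were not counted. Genes numbered as copies of 1 microRNA can lose reads in this way. Examples are Mir1a-1 and Mir1a-2, Mir133a-1 and Mir133a-2, and Mir365-1 and Mir365-2. The zeros of the striated muscle list therefore do not show absence.

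The median log2 ratio was 4.50 for the miR-200 list and 2.75 for brown fat, beside 0.26 over all 441 genes tested. It was 1.63 for squamous epithelium, 0.64 for kidney and intestine, 0.48 for striated muscle and -0.32 for Mir148a and its relatives. It was -0.36 for the islet and neuroendocrine list, -0.36 for leukocytes, -0.37 for the miR-183 cluster and -3.23 for the erythroid list. With TMM scaling every log2 ratio, that of the 5 pancreas genes included, fell by 0.35. The libraries also differed in the share of unmapped reads, 26.4% in replicate 1 and 51.9% in replicate 2, and the part of that difference in these ratios was not tested.

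**Figure D4:**
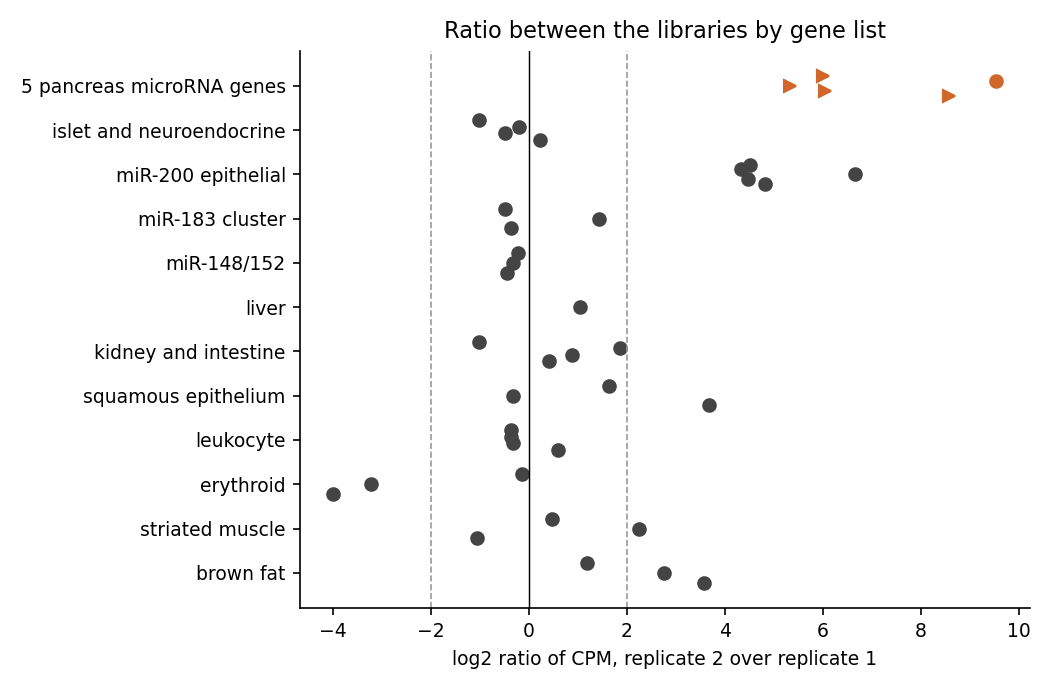
Log2 ratio of CPM, replicate 2 over replicate 1, of each gene with at least 10 counts summed, by list. Circles are ratios, and dashed lines mark 4-fold. Triangles are lower bounds from 0 counts in replicate 1 set to 3, without the counting error of replicate 2. The 5 pancreas genes lie at 5.33 or above, the miR-200 genes between 4.32 and 6.65, and the islet and neuroendocrine genes between -1.02 and 0.23.

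In the annotation, 2 microRNA genes lie on the sense strand inside 41 genes typical of acinar cells, Mir6969 in Clps and Mir7076 in Ctrb1, which encodes chymotrypsinogen. Mir7076 had 0 counts in replicate 1 and 3 in replicate 2, both within the floor, so no ratio is given. No microRNA gene lies inside the 10 islet genes, the 14 genes of the adrenal cortex or the 8 genes of the adrenal medulla that were listed, such as Cyp11b1 and Th. The tables hold microRNA genes only, so the labelled tissue could not be checked against messenger RNAs of the gland.

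The hairpins of the 5 genes were poorer in G and C than the median hairpin. Their GC content was 38.0% for Mir217, 38.1% for Mir802, 44.2% for Mir216b, 44.4% for Mir216a and 49.2% for Mir6969. The median was 51.1% over the 368 tested genes with a RefSeq hairpin, with a 5th percentile of 37.0%. All 5 were thus below that median and above that percentile. The Mir6969 hairpin of 61 bases was the shortest and that of Mir217, at 108 bases, the longest. The minimum free energy of the fold predicted by RNAfold was -23.7 kcal/mol for Mir6969, -30.0 for Mir216a, -30.8 for Mir802, -35.7 for Mir217 and -36.7 for Mir216b.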

How the data were processed

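Small RNA of adrenal gland was sequenced in 2 libraries of 1 group. The deposited tables hold raw read counts per microRNA gene without regard to strand and for each strand, on mm10 with GENCODE M21 per the text deposited with them. No aligner or counting program is given in the sources used here. The strand column with more gene counts in both libraries was taken as sense. The 4 rows that name no gene (unmapped, several places, outside genes, ambiguous) did not enter the library sizes (26.4%, 29.8%, 7.16% and 0% of reads in replicate 1, 51.9%, 21.5%, 6.46% and 0% in replicate 2). All 2202 identifiers matched GENCODE M21 symbols.

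Counts were scaled to CPM over all genes. Ratios are replicate 2 over replicate 1, with a count of 0 set to 3. Genes with at least 10 counts summed were compared, and over 4-fold was the call. With 1 library on each side there is no replicate check, so no p-value is given. Counting error is all that intervals and floors cover, because PCR copies are not marked.

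The members, lists and named genes were chosen with earlier results of these data known. Named genes are the 5 members, all genes of 11 tissue lists, neighbours within 50 kb, genes of a shared seed or a listed host gene, and the 10 other genes with the largest ratio. Genes counted in a single library were named after their values were seen. Alternatives covered scaling (TMM, DESeq2 median ratio, no highest gene), the strand-blind column, zeros, minimum, fold and each library. Software was Python 3.11.15, NumPy 2.4.6, pandas 2.3.3, SciPy 1.17.1, matplotlib 3.10.9, R 4.3.3, edgeR 4.0.16, DESeq2 1.42.0, Biopython 1.88 and ViennaRNA 2.7.2.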

Additional observations from a re-analysis of the deposited data

How the results depend on the processing

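Every log2 ratio of the 5 genes stayed positive under the scalings, zeros and pseudocount tried, and the lowest was 4.80. The 5 genes were selected on this ratio, and each scaling shifts all genes alike, so their sign was in effect fixed beforehand. For Mir216b no ratio exists in the strand-blind column, where it has 0 counts in both libraries, and there Mir216b took 0% and Mir217 90.4% of the cluster. The summed log2 ratio of 11.23 rests on 1 count in replicate 1, that of Mir802. As a ratio it is 2400, with a counting interval of 430 to 94881. The summed log2 ratio ranged from 8.77 with a pseudocount of 1 CPM to 11.39 without the highest gene. Without replicate 1 the summed mean of 267 CPM became 534 CPM and without replicate 2 0.222 CPM, and for the Mir216a, Mir216b and Mir217 cluster 163 CPM became 326 and 0 CPM. Counts of genes past the fold toward replicates 2 and 1 moved from 40 and 16 to 23 and 7 with a minimum of 50 summed, to 18 and 5 with at least 10 in both libraries, to 113 and 54 at 2-fold and to 17 and 5 at 8-fold. Toward replicate 1 the count was 9 with a pseudocount of 1 CPM. Of these, the minimums and folds change the number of genes that can be called by construction. The split of 30 and 21 with TMM was 28 and 21 with DESeq2, with which every log2 ratio fell by 0.44. Genes counted in replicate 1 only moved from 3 to 14 with a minimum of 5 and to 0 with a minimum of 50. The alternative with no minimum kept genes with over 3 counts in either library, since no fold is defined below that. No paired analysis was possible because there is only 1 group. Depth limits replicate 2 more than replicate 1, and a gene at 1.44 CPM or less there may be missed.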
